A study of Mus musculus with 12 samples.

Results

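The genes of DNA replication and nucleotide supply were followed in 12 microarrays of mouse B cells sorted by IL-10 secretion. The list held 44 genes, from origin licensing to chromatin assembly behind the fork. Members were found by the gene symbol printed in the scanner files, and each gene was read from its probe with the highest mean over the arrays. All 44 had a probe, and 42 of them were measured among 24964 genes in all; measured means that a probe was well above background on at least 3 arrays. Cdc6, which loads the helicase onto origins, and Mcm10, which helps to activate it, had no such probe. Of the 42, 33 were well above background on all 12 arrays.

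The cells were B cells purified from the spleens of female Balb/c mice. They were cultured for 2 days with a CD40 agonist, which stands in for T cell help, and with LPS, a bacterial activator, for the final 5 hours. A secretion assay then marked the cells that released IL-10, and flow cytometry split them from the rest. The 4 groups, with 3 arrays each, were the IL-10+ cells of HDM mice and of control mice, and the IL-10- cells of HDM mice and of control mice. The design text calls the HDM mice asthmatic and allergic, HDM being the usual short form of house dust mite, and all 4 groups shared strain, sex, culture and both activators. The labels do not give the age of the mice, the allergen schedule or the source of each of the 3 samples in a group; the spread behind the p-values may therefore be technical.

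Before S phase, the origin recognition complex, Cdc6 and Cdt1 load the Mcm2 to Mcm7 ring onto DNA, and geminin, the product of Gmnn, holds Cdt1 in check. Cdc45 and the GINS proteins turn the ring into an active helicase, DNA polymerase alpha with its primase starts each new strand, and polymerases delta and epsilon extend it on the sliding clamp Pcna, which the replication factor C proteins load. Ribonucleotide reductase, thymidylate synthase, thymidine kinase and dUTPase supply the nucleotides. Transcription of many of these genes is switched on at the G1 to S boundary by E2F factors. A B cell stimulated through CD40 normally enters the cycle within the culture time used here. LPS was present only in the final hours of that culture.

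Promoter sequence shows what the members share beyond their function, so the windows from 250 bases before to 50 bases after the transcription start were taken from RefSeq (GRCm38.p6). Of the 44 members, 36 had at least 1 window, 42 windows in all; Mcm4, Gmnn, Gins1, Gins2, Gins4, Rfc2, Pole and Prim2 did not. The E2F words searched were TTTGGCGC, TTTCCCGC, TTTCGCGC and TTTGCCGC, on either strand, with overlapping words counted separately. At least 1 word lay in the windows of 14 of the 36 members (38.9%), against 704 of the 27025 genes in the table (2.61%). The NF-Y word CCAAT, on either strand, was in at least 1 window of 63.9% of the 36 members and of 41.1% of all genes. The GC box word GGGCGG was in a window of 77.8% of these members and of 38.2% of all genes, and the median GC content was 60.1% in members and 52.8% in all genes. TTTGAA, a core of the element found in promoters of mitotic genes, was in a window of 13.9% of these members and of 20.2% of all genes. A match of letters is a description and not a binding site.

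Windows of 5 members whose values are given below are shown for their E2F words, cut to the 180 bases before and the 20 bases after the start, 5′ to 3′ on the strand of the gene, with the E2F words in capitals. Mcm5 and Mcm6 each hold a pair of overlapping words on opposite strands, Mcm6 holds another closer to the start, Rfc3 holds 1 word on each side of its start, and Pcna is shown as a member with none.
Mcm5, chr8:75109329-75109528, plus strand: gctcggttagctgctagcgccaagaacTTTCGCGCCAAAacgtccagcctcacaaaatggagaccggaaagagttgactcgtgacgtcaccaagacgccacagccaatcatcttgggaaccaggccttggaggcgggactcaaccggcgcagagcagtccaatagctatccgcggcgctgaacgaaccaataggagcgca
Mcm6, chr1:128359686-128359885, minus strand: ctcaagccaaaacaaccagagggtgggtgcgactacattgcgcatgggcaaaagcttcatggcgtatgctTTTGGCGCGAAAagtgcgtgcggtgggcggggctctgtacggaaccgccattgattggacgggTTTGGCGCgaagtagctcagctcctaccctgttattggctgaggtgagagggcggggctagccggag
Pola1, chrX:93632136-93632335, minus strand: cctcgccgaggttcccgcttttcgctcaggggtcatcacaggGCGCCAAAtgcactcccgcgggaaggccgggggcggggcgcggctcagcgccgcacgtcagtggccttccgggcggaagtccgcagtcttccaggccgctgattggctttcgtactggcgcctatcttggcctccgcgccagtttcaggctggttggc
Rfc3, chr5:151651189-151651388, minus strand: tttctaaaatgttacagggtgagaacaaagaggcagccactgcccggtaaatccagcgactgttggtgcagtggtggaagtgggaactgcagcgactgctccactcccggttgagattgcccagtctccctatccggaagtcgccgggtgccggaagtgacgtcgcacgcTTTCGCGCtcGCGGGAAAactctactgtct
Pcna, chr2:132253161-132253360, minus strand: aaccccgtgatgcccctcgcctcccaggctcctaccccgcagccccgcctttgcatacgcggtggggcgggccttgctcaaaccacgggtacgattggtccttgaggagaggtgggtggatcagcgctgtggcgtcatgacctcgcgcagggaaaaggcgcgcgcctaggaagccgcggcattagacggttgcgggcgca

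Positions are counted from the first transcribed base, which is 1, with no base 0. The overlapping words of Mcm5 began at -153 and -149, those of Mcm6 at -110 and -106, and the third word of Mcm6 at -47. The word of Pola1 began at -138, and those of Rfc3 at -10 and 1. Of the 20 words in all member windows, 12 began between 100 bases before and 50 bases after the start, as the map of word positions shows.

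**Figure D1:**
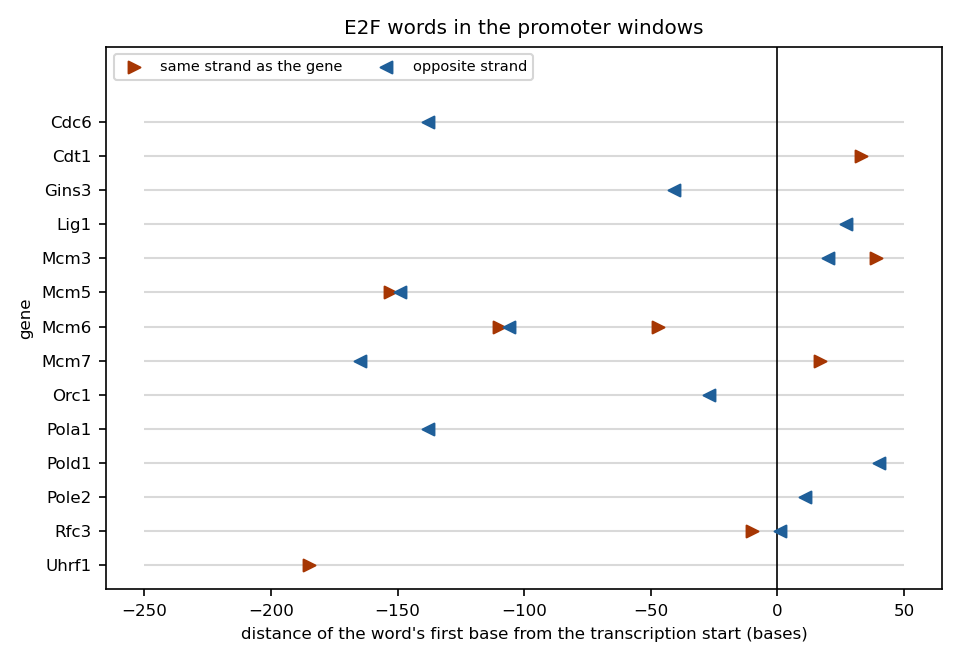
Positions of the 20 E2F words in the windows of the 14 members that hold any, as the distance in bases of the word's first base from the transcription start (vertical line). Each row is a gene, right-pointing marks are words on the gene's strand and left-pointing marks words on the opposite strand, and 12 of the 20 lie from 100 bases before to 50 bases after the start.

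A level below is a processed signal divided by the 75th percentile of its array, as log2, and a difference is a log2 fold change, given with its standard error (SE). Levels of different genes come from different probes and are not compared. The share of tested genes well above background was lowest, at 73.0%, on IL-10- HDM array 3. It was 78.6% on IL-10+ control array 2 and 80.8% on the second array of IL-10- control cells, and 84.1% to 90.9% on the others. IL-10- HDM array 3 had a mean correlation across genes of 0.775 with the other arrays, against 0.867 to 0.901. All IL-10+ arrays and IL-10- control arrays 1 and 2 were on slide 1, and IL-10- control array 3 and the 3 IL-10- HDM arrays on slide 2, so that in HDM mice the sort and the slide cannot be told apart. Any difference of the sort contrast between HDM and control mice carries the same limit. The sort target Il10 was at 6.42 to 7.57 on the 6 IL-10+ arrays and at -5.43 to 1.12 on the 6 IL-10- arrays. Of 10 B cell markers, 10 were well above background on every array in 3 groups and 9 in IL-10- HDM cells, where Cd79a was at -5.87 on array 3. The summed log2 level of 7 T cell markers was 1.16 to 1.96 over the IL-10+ arrays and 1.18 to 2.10 over the IL-10- arrays. Il7r among them was at -6.35, -6.05 and -6.23 on the IL-10+ HDM arrays, not well above background. It was at -0.59, -1.58 and -1.85 on the IL-10- HDM arrays. Cd3g and Lck stood apart the other way in HDM mice, and the rest overlapped there. Of the dendritic cell markers tested, Xcr1 was higher and Siglech lower on all IL-10+ HDM arrays than on the IL-10- HDM arrays. Flt3 and Zbtb46 overlapped. The summed log2 level of 7 monocyte and macrophage markers was 8.58 to 8.99 on the IL-10+ arrays and 8.54 to 8.97 on the IL-10- arrays, a sum carried by Itgam, at 8.51 to 8.96. Of these 7, the numbers detected on each array of a group were 6 in IL-10+ HDM, 5 in IL-10+ control, 4 in IL-10- HDM and 5 in IL-10- control cells. The macrophage marker Emr1 was at -0.68, -1.44 and -0.97 on the IL-10+ HDM arrays and at -4.71, -4.46 and -6.10 on the IL-10- HDM arrays. In control mice it was at -1.22, -0.16 and -0.34 on the IL-10+ arrays and at 0.12, -2.28 and -2.02 on the IL-10- arrays. These overlapped. Csf1r was also apart in HDM mice. It was at 3.13, 3.16 and 3.60 on the IL-10+ HDM arrays and at 3.07, 2.81 and 2.65 on the IL-10- HDM arrays. The other markers of this list overlapped between the sorts in HDM mice, where sort and slide cannot be told apart. The summed level of 5 plasmablast markers, led by Irf4, was 6.34 to 7.62 on the IL-10+ arrays and 6.25 to 8.26 on the IL-10- arrays. Igj among them, which encodes the joining chain of antibodies, was at 0.88 to 3.41 on the IL-10+ arrays and at -6.24 to -2.95 on the IL-10- arrays, with no overlap. Irf4 went the other way in HDM mice. It was at 6.56, 6.32 and 6.57 on the IL-10+ HDM arrays and at 6.99, 7.12 and 8.24 on the IL-10- HDM arrays. Prdm1, Xbp1 and Sdc1 overlapped between the sorts in both kinds of mice, as did Irf4 in control mice. The part of other cells in the results was not tested. In bulk samples, fewer cells in S phase and less replication RNA per cell cannot be told apart.

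The members as a group stood highest on the same 3 arrays that had the fewest genes well above background. Each member's deviation from its own mean over the 12 arrays was taken, and the median over the 42 members was 0.76 on IL-10- HDM array 3, 0.31 on IL-10+ control array 2 and 0.66 on IL-10- control array 2. On the other 9 arrays it was between -0.49 and 0.18, lowest on IL-10+ HDM array 2. The highest value of a gene lay on 1 of these 3 arrays for 28 of 42 members (66.7%) and for 41.9% of all tested genes. Their 3 highest arrays were exactly these 3 for 9 members (21.4%), against 2.93% of all genes: Fen1, Gins3, Mcm3, Mcm4, Mcm6, Mcm7, Orc6, Rfc4 and Rpa2. Only 1 member (2.38%) had its highest value on an IL-10+ HDM array, against 18.5% of all genes. The part of the lower detection on these arrays in the levels of the members was not tested.

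**Figure D2:**
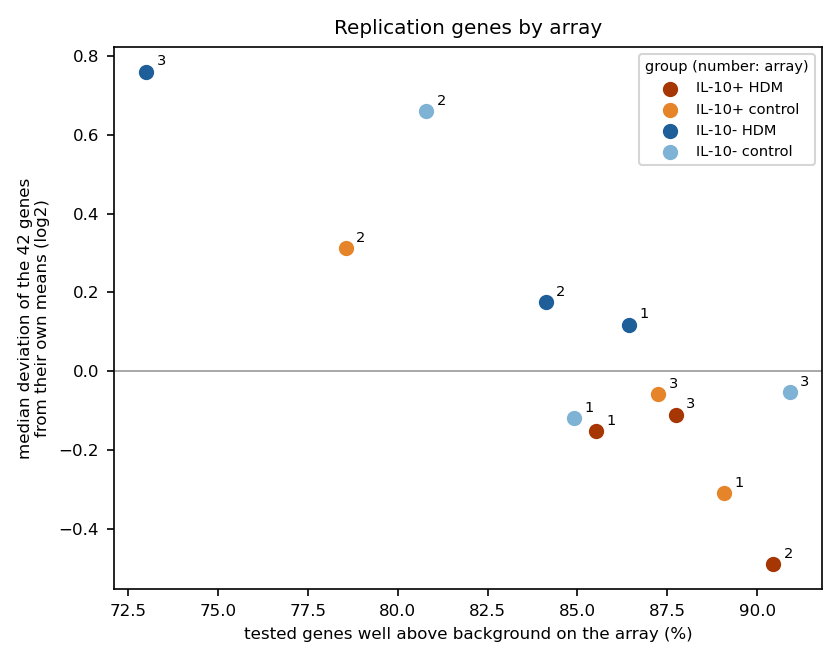
Share of tested genes well above background (horizontal, percent) against the median deviation of the 42 measured genes from their own means (vertical, log2), with 1 point per array, coloured by group and numbered by array. The 3 arrays with the lowest shares have the 3 highest medians, 0.76, 0.31 and 0.66.

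No member passed the test in any of the 6 comparisons. In HDM mice, IL-10+ cells lay below IL-10- cells for most members: 27 of 42 log2 fold changes were negative (64.3%), against 43.1% of all tested genes, and the median was -0.61, against 0.16. Of the members, 0 were called at an adjusted p under 0.05, against 0.168% of all genes, and the lowest adjusted p was 0.27 for Gins4 (limma). At an unadjusted p under 0.05, 8 members (19.0%) were lower, against 5.58% of all genes, and 0 were higher, against 7.72%. The 3 IL-10+ arrays lay wholly below the 3 IL-10- arrays for 11 members (26.2%), against 11.2% of all genes, and wholly above for 1 (2.38%), against 11.4%. Without IL-10- HDM array 3, the median was -0.36, and 5 members were lower at an unadjusted p under 0.05 without IL-10+ HDM array 1 or 2. With slide as a block, the median was -0.93, and 3 members were lower at that p. Only the IL-10- control group had arrays on both slides, so the slide term rests on its array 3. That fit therefore cannot tell the sort from the slide in HDM mice.

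In control mice, the same sort gave a median nearer to 0. The median of the members was -0.31, against -0.04 over all genes, and 28 of 42 were negative (66.7%), against 53.2%. Of the members, 0 were called, against 0.016% of all genes, and the lowest adjusted p was 1.00 (limma). At an unadjusted p under 0.05, 1 member (2.38%) was lower, against 1.81% of all genes, and 0 were higher, against 2.25%. The groups did not overlap for 4 lower members (9.52%), against 4.7%, and for 0 higher members, against 4.75%. This median rested on single arrays: it was 0.018 when IL-10+ control array 1 was left out and -0.023 when the second IL-10- control array was. Within slide 1, which leaves out IL-10- control array 3, it was -0.42, with 36 of 42 negative.

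Averaged over HDM and control mice, 29 of 42 members were negative (69.0%), against 47.3% of all genes, with a median of -0.48, against 0.04. Of the members, 0 were called, against 0.268% of all genes, and the lowest adjusted p was 0.32 for Pola1 (limma). At an unadjusted p under 0.05, 5 were lower (11.9%), against 3.57% of all genes: Pola1, Pold1, Pola2, Cdt1 and Mcm5. At that p 0 were higher, against 5.59%, and the 6 arrays on each side stood apart for 0 members, against 0.701% of genes higher and 0.236% lower. The number lower was 11 when IL-10+ control array 2 was left out. It was 3 when IL-10+ control array 3 was left out, and also 3, with a median of -0.29, when the second IL-10- control array was. Without the 3 arrays of low detection together, the median was -0.41 and 7 members were lower at that p. Rrm1, Rpa3, Chaf1a, Gins1, Tyms and Orc1 had the 6 largest positive fold changes, 0.53 to 1.03, and are described with their roles.

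**Figure D3:**
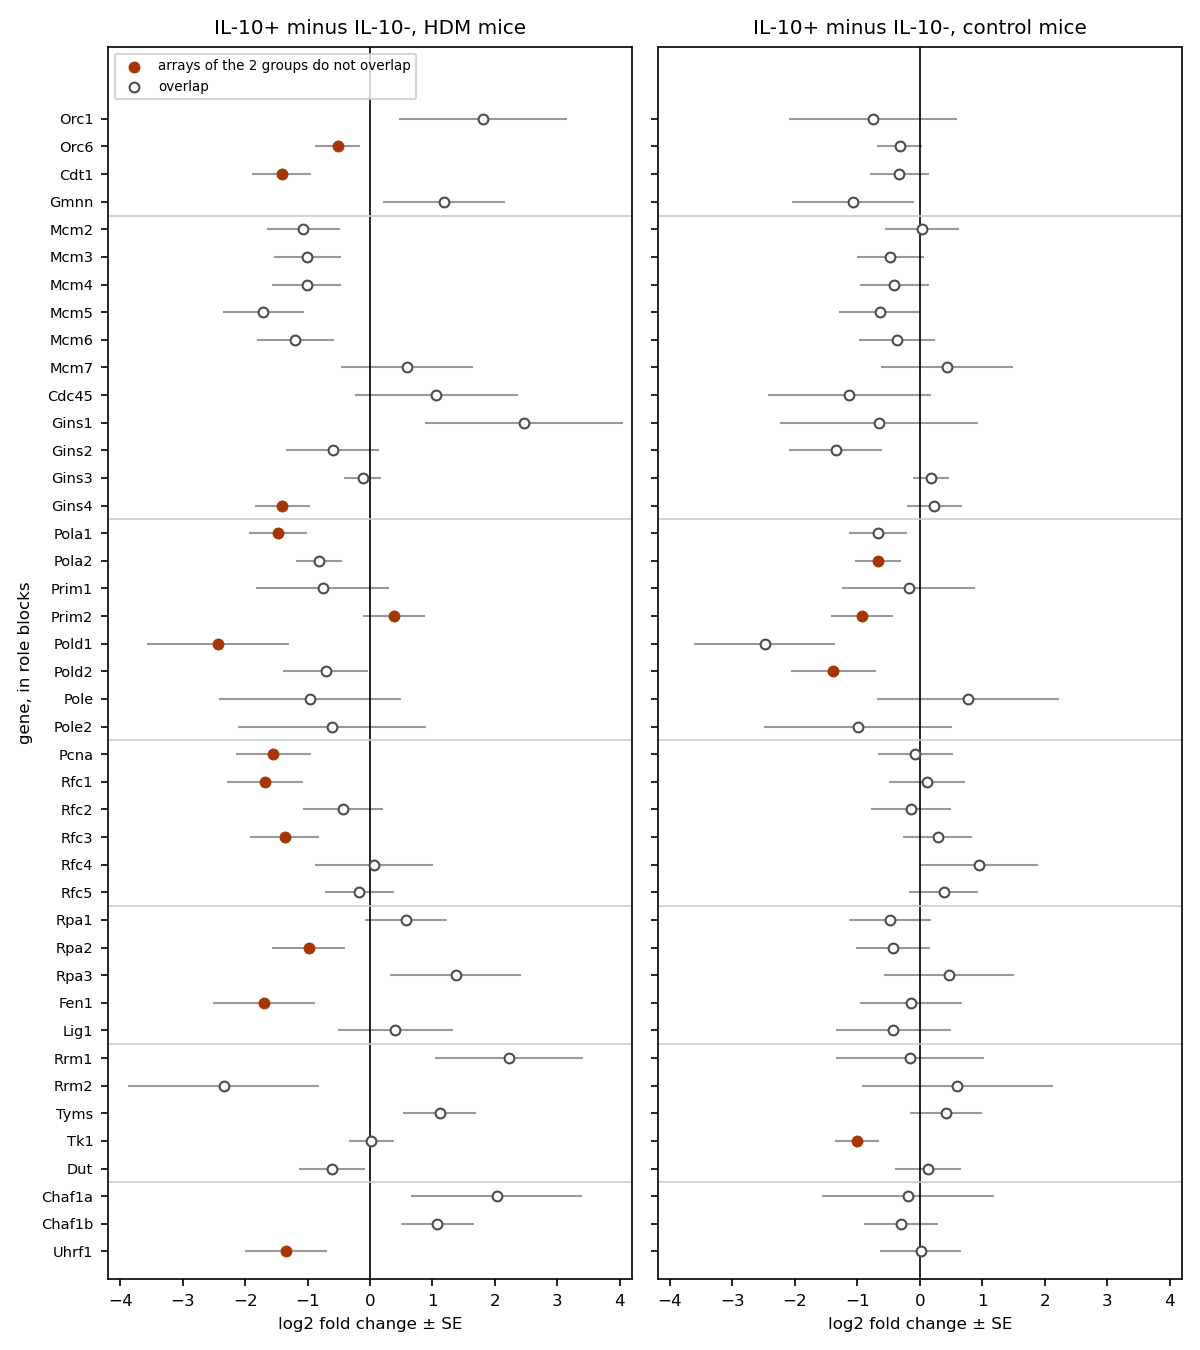
Log2 fold changes of IL-10+ against IL-10- cells (horizontal, ± SE) for the 42 measured genes (rows, in blocks by role) in HDM mice (left) and in control mice (right). Filled points mark genes whose 3 IL-10+ arrays and 3 IL-10- arrays do not overlap, 11 lower and 1 higher in HDM mice, and 4 lower in control mice.

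Among the licensing genes, Cdt1, the factor that brings the Mcm ring to the origin, lay lower on all 3 IL-10+ arrays of HDM mice. Its probe lies at chr8:125096893-125096952 (mm9). In HDM mice Cdt1 was at 0.95, 1.55 and 1.45 on the IL-10+ arrays and at 2.46, 2.05 and 3.69 on the IL-10- arrays. In control mice Cdt1 was at 1.33, 1.70 and 1.16 on the IL-10+ arrays and at 1.15, 2.33 and 1.69 on the IL-10- arrays. All IL-10+ HDM arrays lay below all IL-10- HDM arrays, while the control groups overlapped. The log2 fold change was -1.42 (SE 0.47, adjusted p = 0.29) in HDM mice, with a 95% interval of -2.47 to -0.36, and -0.33 in control mice. Without IL-10- HDM array 3 the value of Cdt1 in HDM mice was -0.94.

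Orc6, a subunit of the origin recognition complex, was at 4.56, 4.28 and 4.75 on the IL-10+ HDM arrays and at 4.96, 4.95 and 5.25 on the IL-10- HDM arrays. These did not overlap, by a small margin: its log2 fold change was -0.52 (SE 0.36) in HDM mice. Orc1, the subunit that joins the complex in G1, was read at 0.69, -1.04 and -0.91 on the IL-10+ HDM arrays and at -0.63, 0.01 and -6.08 on the IL-10- HDM arrays. In control mice Orc1 was at 0.49, -0.86 and 0.50 on the IL-10+ arrays and at -0.0039, 0.89 and 1.47 on the IL-10- arrays. The value of -6.08 was not well above background, and the averaged log2 fold change of 0.53 (SE 0.95) turned to -0.43 without that array. Gmnn, read from a probe on the plus strand of chromosome 13 in mm9 while its other probe lies on the minus strand, was well above background on 4 of 12 arrays; its own fold change is not described, but it counts among the 42 in each median and count.

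In the helicase group, Gins4, a subunit of the GINS complex, had the lowest adjusted p of all members in HDM mice. Its probe lies at chr8:24337452-24337511 (mm9). In HDM mice Gins4 was at 0.43, 0.39 and 0.32 on the IL-10+ arrays and at 1.66, 1.49 and 2.21 on the IL-10- arrays. In control mice Gins4 was at 1.04, 2.36 and 1.07 on the IL-10+ arrays and at 1.59, 1.58 and 0.62 on the IL-10- arrays. The IL-10+ HDM arrays held the 3 lowest of its 12 values, and the spread among them was small. The log2 fold change was -1.40 (SE 0.44, adjusted p = 0.27) in HDM mice and 0.23 in control mice. The difference between these contrasts was -1.63 (SE 0.62, adjusted p = 0.76), with a 95% interval of -3.02 to -0.25. It was -1.19 without IL-10+ control array 2, of low detection, where Gins4 was at 2.36.

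Of the 6 Mcm2 to Mcm7 ring subunits, 5 had a negative log2 fold change in HDM mice, and Mcm7 a positive one. The log2 fold changes there were -1.07 for Mcm2, -1.003 for Mcm3, -1.01 for Mcm4, -1.71 for Mcm5, -1.20 for Mcm6 and 0.59 for Mcm7, and each pair of groups overlapped. In HDM mice Mcm5 was at 0.05, 0.58 and 0.65 on the IL-10+ arrays and at 0.62, 2.15 and 3.64 on the IL-10- arrays. In control mice Mcm5 was at 0.80, 1.87 and 1.11 on the IL-10+ arrays and at 1.56, 1.99 and 2.15 on the IL-10- arrays. A single IL-10- HDM array, at 0.62, fell inside the range of the IL-10+ HDM arrays. Averaged over both mice, Mcm5 had a log2 fold change of -1.18 (SE 0.46, adjusted p = 0.47). Mcm7 was at 0.71, 1.198 and 1.00 on the IL-10+ HDM arrays and at -2.04, -0.11 and 3.29 on the IL-10- HDM arrays, the widest spread of any ring subunit in that group. In control mice Mcm7 was at 1.44, 1.89 and 1.25 on the IL-10+ arrays and at 0.16, 1.62 and 1.48 on the IL-10- arrays.

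The other GINS subunits had overlapping groups in both kinds of mice. Gins2 was at 0.68, -1.11 and 0.68 on the IL-10+ HDM arrays and at 0.85, 1.18 and 0.02 on the IL-10- HDM arrays. In control mice Gins2 was at -0.61, -2.72 and -0.74 on the IL-10+ arrays and at -0.98, 0.95 and 0.01 on the IL-10- arrays. Its averaged log2 fold change was -0.97 (SE 0.53, adjusted p = 0.62). Gins3 stayed between 7.06 and 7.83 on all 12 arrays. Gins1 was well above background on 7 of 12 arrays, all 3 IL-10+ HDM arrays among them. Gins1 was at -1.99, -2.87 and -1.77 on the IL-10+ HDM arrays and at -1.23, -6.60 and -6.19 on the IL-10- HDM arrays, and in control mice at -6.24, -1.96 and -6.45 on the IL-10+ arrays and -6.09, -2.64 and -3.96 on the IL-10- arrays. Its averaged log2 fold change of 0.90 (SE 1.12) includes dim signals on 5 arrays. Cdc45, which forms the active helicase with the ring and the GINS complex, was at 0.06 to 0.42 on the IL-10+ HDM arrays and at -2.68 to 0.60 on the IL-10- HDM arrays.

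The polymerase and primase genes were the role in which all members were negative in the averaged comparison, 8 of 8, with a median of -0.77, although Pole was at -0.09 and its 2 other probes gave 0.52 and 1.29. Pola1 encodes the catalytic subunit of polymerase alpha, and its probe lies at chrX:90550189-90550248 (mm9). In HDM mice Pola1 was at -0.88, -0.64 and -1.85 on the IL-10+ arrays and at -0.35, 0.70 and 0.71 on the IL-10- arrays. In control mice Pola1 was at -0.17, -0.97 and -0.10 on the IL-10+ arrays and at -0.14, 0.72 and 0.20 on the IL-10- arrays. The HDM groups did not overlap, and in control mice only the lowest IL-10- array reached into the IL-10+ range. The averaged log2 fold change was -1.07 (SE 0.33, adjusted p = 0.32), with a 95% interval of -1.81 to -0.34, and it was -1.48 (SE 0.47, adjusted p = 0.27) in HDM mice.

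Pola2 encodes the regulatory subunit of the same polymerase. In HDM mice Pola2 was at 0.86, 0.69 and 1.61 on the IL-10+ arrays and at 2.43, 1.55 and 1.66 on the IL-10- arrays. In control mice Pola2 was at 1.35, 1.27 and 0.77 on the IL-10+ arrays and at 1.80, 1.86 and 1.72 on the IL-10- arrays. Here the control groups did not overlap, and the HDM groups overlapped by 1 array on each side. The log2 fold changes were close in the 2 kinds of mice, -0.82 in HDM and -0.67 in control mice, and the averaged one was -0.74 (SE 0.26, adjusted p = 0.40).

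Pold1, the catalytic subunit of polymerase delta, had the largest averaged fold change of any member, -2.46 (SE 0.80, adjusted p = 0.36). In HDM mice Pold1 was at -3.33, -1.50 and -2.33 on the IL-10+ arrays and at -0.16, -0.34 and 0.64 on the IL-10- arrays. In control mice Pold1 was at -1.17, -5.08 and 0.02 on the IL-10+ arrays and at 0.12, 1.54 and -0.44 on the IL-10- arrays. The HDM groups stood apart by more than 1 log2 unit, while the IL-10+ control arrays spanned a value of -5.08 that was not well above background. Without that array the averaged value was -1.71. Pold2, an accessory subunit of the same polymerase, was separated in control mice instead. It was at 1.92, 0.45 and 1.33 on the IL-10+ HDM arrays and at 0.87, 1.26 and 3.71 on the IL-10- HDM arrays, and at 0.35, 0.41 and 0.55 on the IL-10+ control arrays and at 1.63, 1.63 and 2.20 on the IL-10- control arrays. Only the control groups of Pold2 did not overlap, with a log2 fold change of -1.38 (SE 0.68) in control mice and -0.71 in HDM mice.

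Prim2, the large primase subunit, was at -1.54, -1.18 and -1.34 on the IL-10+ HDM arrays and at -1.85, -1.68 and -1.69 on the IL-10- HDM arrays. In control mice Prim2 was at -1.56, -1.70 and -2.03 on the IL-10+ arrays and at 0.50, -1.56 and -1.43 on the IL-10- arrays. The log2 fold change was 0.39 (SE 0.50) in HDM mice, and -0.053 after quantile normalization, -0.41 in the deposited value table and -0.52 with slide as a block, so its direction is not settled. In control mice it was -0.93 (SE 0.50), and -0.27 without IL-10- control array 1, which stood far above the rest; the other control arrays of both sorts met at -1.56. The difference of the contrasts was 1.32 (SE 0.70, adjusted p = 0.76). Prim1, Pole and Pole2 had averaged log2 fold changes of -0.47, -0.09 and -0.80, each smaller than its SE. The 3 probes of Pole disagreed in HDM mice, at -0.96 for the one used and 1.46 and 1.81 for the others.

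Genes of the clamp and its loader were mostly negative in HDM mice and mixed in control mice. In HDM mice 5 of the 6 genes were negative, with a median of -0.90, and in control mice 2 of 6, with a median of 0.20. Over all 42 members the difference between these contrasts had a median of -0.30, against 0.16 over all genes, with 24 negative (57.1%), against 43.9%. That median was -0.69 to -0.10 with 1 array left out, the limits reached by omitting IL-10- control array 2 (-0.69) or 3 (-0.10), and it was -0.081 after quantile normalization. At an unadjusted p under 0.05, 1 member (2.38%) was lower, against 1.97% of all genes, and 0 higher, against 4.49%. For the clamp and loader genes it was negative for 6 of 6, with a median of -1.18, but 0 of them were called, against 0.012% of all genes. These differences include the sort in HDM mice, so the slide cannot be told apart from them either. Pcna, the sliding clamp, was at -0.14, -0.48 and 0.49 on the IL-10+ HDM arrays and at 1.43, 1.61 and 1.48 on the IL-10- HDM arrays. In control mice Pcna was at 0.08, 2.10 and 0.19 on the IL-10+ arrays and at 0.18, 1.82 and 0.59 on the IL-10- arrays. The HDM groups stood almost 1 log2 unit apart, and in the control groups the arrays numbered 2, both of low detection, were the highest. The log2 fold change was -1.55 (SE 0.60, adjusted p = 0.33) in HDM mice and -0.08 in control mice.

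Rfc1, the large subunit of the clamp loader, was at 0.94, 0.71 and 0.92 on the IL-10+ HDM arrays and at 2.27, 1.84 and 3.52 on the IL-10- HDM arrays. In control mice Rfc1 was at 0.71, 2.93 and 1.42 on the IL-10+ arrays and at 1.27, 2.23 and 1.22 on the IL-10- arrays. It had a log2 fold change of -1.68 (SE 0.61, adjusted p = 0.32) in HDM mice and 0.12 in control mice, with a difference of -1.80 (SE 0.86, adjusted p = 0.76). Without IL-10- HDM array 3 the value of Rfc1 in HDM mice was -1.20. Rfc3, a small subunit, was at 1.51, 1.26 and 0.12 on the IL-10+ HDM arrays and at 3.39, 1.97 and 1.62 on the IL-10- HDM arrays. In control mice Rfc3 was at 2.33, 1.72 and 2.44 on the IL-10+ arrays and at 1.38, 2.43 and 1.81 on the IL-10- arrays. Its log2 fold change was -1.37 (SE 0.55, adjusted p = 0.34) in HDM mice and 0.29 in control mice. Rfc2, Rfc4 and Rfc5 had log2 fold changes of -0.44, 0.06 and -0.17 in HDM mice, each smaller than its SE, so the 3 genes with separated HDM groups were Pcna, Rfc1 and Rfc3. The second probe of Rfc4, well above background on all 12 arrays, gave -0.74 in HDM mice.

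**Figure D4:**
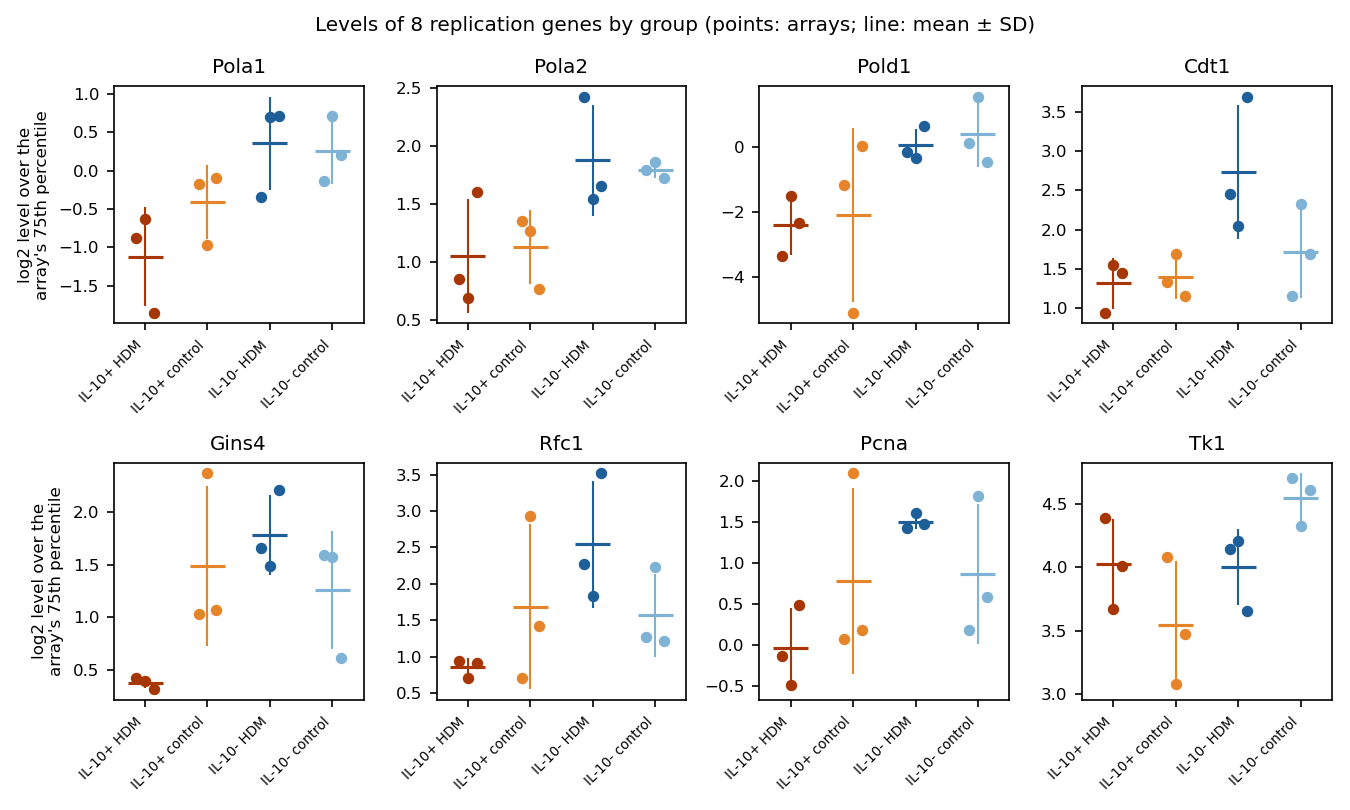
Log2 levels over the array's 75th percentile (vertical) of Pola1, Pola2, Pold1, Cdt1, Gins4, Rfc1, Pcna and Tk1 in the 4 groups of cells, HDM left of control and IL-10+ left of IL-10-. Points are arrays, lines the mean ± SD of 3 arrays, and the vertical axes differ between genes. The IL-10+ HDM arrays lie below all IL-10- HDM arrays for Pola1, Pold1, Cdt1, Gins4, Rfc1 and Pcna, and overlap them for Pola2 and Tk1.

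Fen1, the nuclease that trims Okazaki fragments, was at 1.90, 1.61 and 2.93 on the IL-10+ HDM arrays and at 3.06, 2.96 and 5.53 on the IL-10- HDM arrays. In control mice Fen1 was at 2.11, 4.13 and 2.37 on the IL-10+ arrays and at 2.31, 4.02 and 2.72 on the IL-10- arrays. The HDM groups were separated narrowly, with a log2 fold change of -1.70 (SE 0.82, adjusted p = 0.40). IL-10- HDM array 3 stood highest, and without it the value was -0.86. Rpa2, a subunit of the single-strand binding protein RPA, was at 2.28, 2.08 and 2.62 on the IL-10+ HDM arrays and at 2.88, 3.48 and 3.58 on the IL-10- HDM arrays, a log2 fold change of -0.98 (SE 0.59). Of the 5 single-strand binding and Okazaki fragment genes, 3 were positive in HDM mice, Rpa1, Rpa3 and Lig1, with a role median of 0.41. In control mice 1 of the 5 was positive, with a median of -0.42. Rpa1, another RPA subunit, had a log2 fold change of 0.58 in HDM mice, and -0.16 on its second probe. Rpa3 is the smallest RPA subunit. It was at 3.30, 2.74 and 2.72 on the IL-10+ HDM arrays and at 3.55, -1.21 and 2.32 on the IL-10- HDM arrays, and its averaged log2 fold change of 0.92 (SE 0.74) was 0.23 without the array at -1.21. In control mice Rpa3 was at 2.29, 3.89 and 3.27 on the IL-10+ arrays and at 2.67, 3.69 and 1.69 on the IL-10- arrays. Lig1, the ligase that joins the fragments, had an averaged log2 fold change of -0.01 (SE 0.65).

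The nucleotide supply genes had fold changes of both signs. Tk1 encodes the thymidine kinase of the salvage route. In HDM mice Tk1 was at 4.39, 3.67 and 4.01 on the IL-10+ arrays and at 4.15, 4.21 and 3.65 on the IL-10- arrays. In control mice Tk1 was at 4.08, 3.08 and 3.47 on the IL-10+ arrays and at 4.70, 4.33 and 4.61 on the IL-10- arrays. Its probe lies at chr11:117685654-117685713 (mm9). The log2 fold change was -1.004 (SE 0.36, adjusted p = 1.00) in control mice, where the groups did not overlap, and 0.02 in HDM mice, and the difference of the contrasts was 1.02 (SE 0.50, adjusted p = 0.76). Tk1 had 3 probes, which gave 0.02, 0.38 and -0.69 in HDM mice.

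Tyms, the thymidylate synthase of the de novo route, had a positive fold change in both kinds of mice that missed the test. In HDM mice Tyms was at -0.65, -0.15 and -0.13 on the IL-10+ arrays and at -0.56, -2.19 and -1.51 on the IL-10- arrays. In control mice Tyms was at 0.07, -1.75 and -0.80 on the IL-10+ arrays and at -0.52, -1.93 and -1.31 on the IL-10- arrays. Its averaged log2 fold change was 0.77 (SE 0.41, adjusted p = 0.61). Rrm1, the large subunit of ribonucleotide reductase, was at -0.18, -2.30 and -0.05 on the IL-10+ HDM arrays and at -2.22, -0.77 and -6.20 on the IL-10- HDM arrays, the last not well above background. In control mice Rrm1 was at 0.16, -1.08 and -0.09 on the IL-10+ arrays and at 0.43, -0.66 and -0.31 on the IL-10- arrays. The averaged log2 fold change of Rrm1 was 1.03 (SE 0.84), and 0.25 without the array at -6.20. Rrm2, the small subunit, was well above background on 4 of 12 arrays, none of them IL-10+ HDM. Dut, the dUTPase, had an averaged log2 fold change of -0.24 (SE 0.37).

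Behind the fork, Uhrf1, which brings the maintenance DNA methyltransferase to new DNA, was at 1.94, 1.75 and 1.81 on the IL-10+ HDM arrays and at 2.56, 3.20 and 3.77 on the IL-10- HDM arrays. These groups did not overlap, with a log2 fold change of -1.34 (SE 0.66, adjusted p = 0.40), and its second probe gave -0.47. Chaf1a and Chaf1b, subunits of the histone chaperone CAF-1, had positive values in HDM mice. Chaf1a was at 0.69, -0.19 and 0.27 on the IL-10+ HDM arrays and at -0.0064, 0.54 and -5.84 on the IL-10- HDM arrays, and its averaged value of 0.92 (SE 0.97) turned to -0.10 without the array at -5.84. In control mice Chaf1a was at -0.26, 0.60 and 0.37 on the IL-10+ arrays and at -0.48, 1.502 and 0.26 on the IL-10- arrays. Chaf1b was at -0.92, -1.12 and -1.56 on the IL-10+ HDM arrays and at -2.97, -1.05 and -2.81 on the IL-10- HDM arrays, a log2 fold change of 1.08 (SE 0.59, adjusted p = 0.44).

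**Figure D5:**
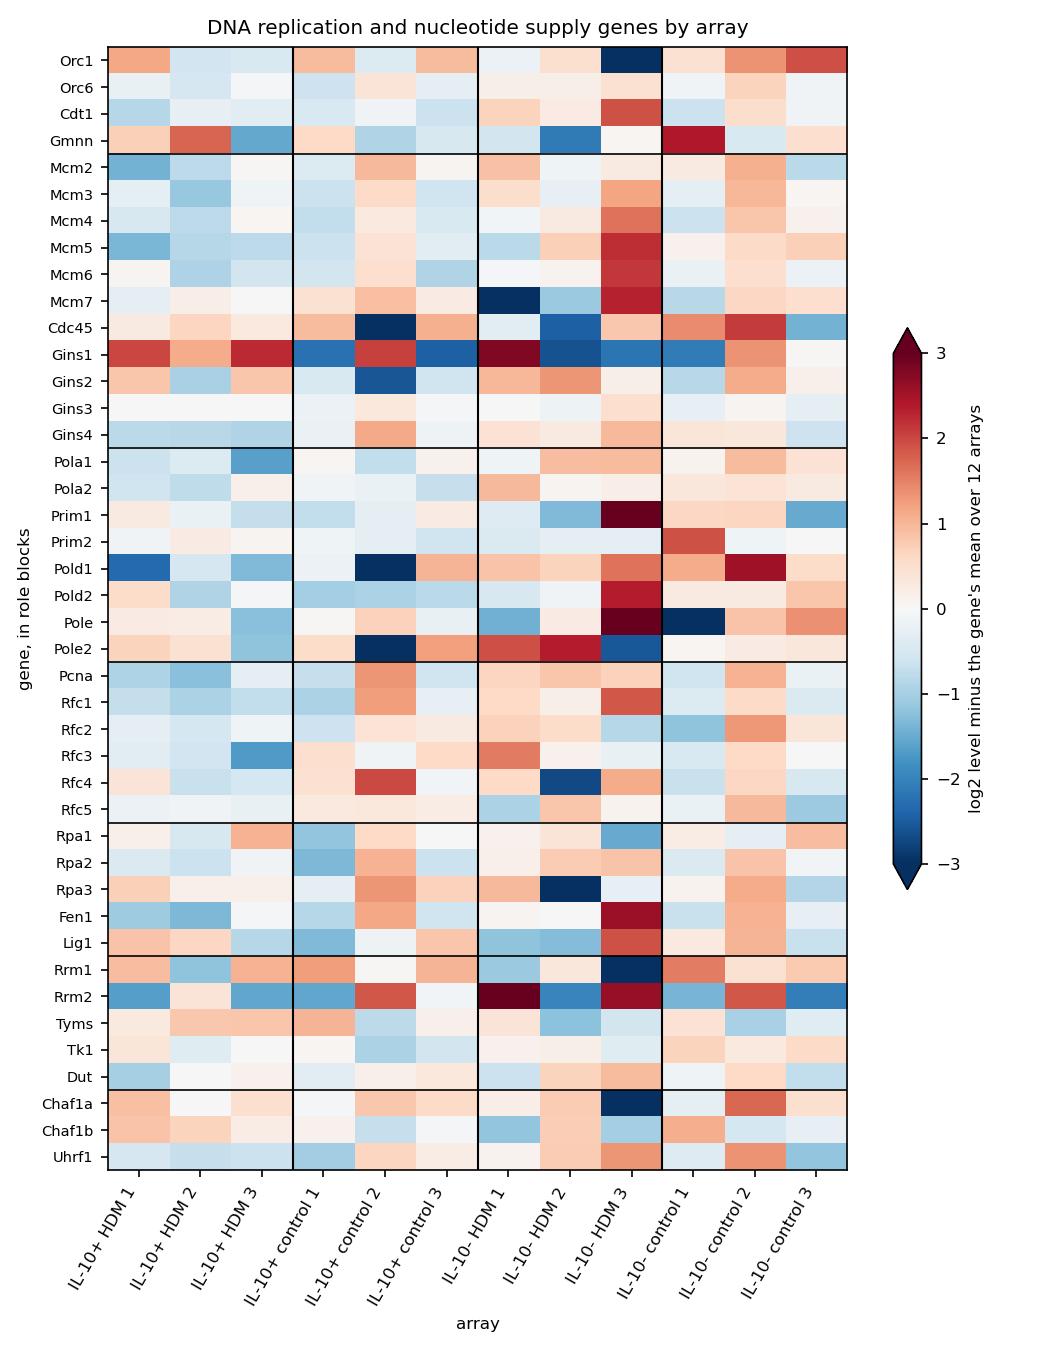
Log2 level of each of the 42 measured genes (rows, in role blocks from origin licensing at the top to chromatin assembly at the bottom) minus its own mean over the 12 arrays (columns, in blocks of 3 by group). Red is above and blue below the mean, and the scale ends at 3 in each direction. The IL-10+ HDM block is pale blue for most Mcm, Rfc and Pola genes, and IL-10- HDM array 3, the highest array for 14 genes, is red for many of them.

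HDM allergy was compared with control mice within each kind of cell. In IL-10+ cells, all on slide 1, 28 of 42 members were negative (66.7%), against 43.7% of all genes, with a median of -0.19, against 0.07. Of the members, 0 were called, against 0.00401% of all genes, with a lowest adjusted p of 1.00 (limma). The HDM arrays lay wholly below the control arrays for 5 members (11.9%), against 3.75% of all genes, and wholly above for 2 (4.76%), against 5.86%. At an unadjusted p under 0.05, 1 member, Gins4 (2.38%), was lower, against 0.649% of all genes, and 0 were higher, against 1.63%. The 5 were Rfc3, with a log2 fold change of -1.20 (SE 0.55), Gins4 at -1.11 (SE 0.44), Mcm5 at -0.83 (SE 0.65), Mcm7 at -0.56 (SE 1.06) and Rfc5 at -0.45 (SE 0.55). Rfc5, another small subunit of the loader, was at 0.89, 0.98 and 0.84 on the IL-10+ HDM arrays and at 1.36, 1.39 and 1.30 on the IL-10+ control arrays, a small gap with little spread on either side. In IL-10- cells Rfc5 was at 0.13, 1.90 and 1.19 on the HDM arrays and at 0.87, 2.05 and -0.014 on the control arrays. In the IL-10+ cells, all 6 clamp and loader genes were negative, with a median of -0.83. The median deviation of these genes was 0.83 on IL-10+ control array 2, of low detection. It was -0.17 on array 1 and 0.07 on array 3 of that group. Without IL-10+ control array 2, Gins4 was at -0.67 and Mcm5 at -0.53. The 2 higher members were Chaf1b at 0.78 (SE 0.59), at -1.64, -2.47 and -1.81 on the IL-10+ control arrays and -0.69, -2.31 and -2.03 on the IL-10- control arrays, and Prim2 at 0.41 (SE 0.50). Leaving out the second IL-10+ control array gave a median of -0.049, and leaving out the second IL-10+ HDM array gave -0.081, each with 22 of 42 negative. Leaving out the first IL-10+ control array gave -0.29.

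In IL-10- cells, HDM against control mice gave 17 of 42 negative members (40.5%), against 52.1% of all genes, with a median of 0.12, against -0.04. Of the members, 0 were called, against 0.0481% of all genes, and the lowest adjusted p was 0.52 for Rrm1 (limma). The HDM arrays lay wholly below the control arrays for 3 members (7.14%), against 6.16% of all genes, and wholly above for 0, against 5.72%. At an unadjusted p under 0.05, 2 (4.76%), Rrm1 and Orc1, were lower, against 5.39% of all genes, and 0 were higher, against 3.74%. The 3 with separated groups were Rrm1 at -2.88 (SE 1.19), Prim2 at -0.91 (SE 0.50) and Tk1 at -0.54 (SE 0.36). The values of Rrm1 and Orc1 included IL-10- HDM array 3, where neither probe was well above background; without it the differences were -1.32 for Rrm1 and -1.09 for Orc1, against -3.01 for Orc1 with it. Prim2 was at -0.25 without IL-10- control array 1, and Tk1 turned to 0.10 in the deposited value table. Without IL-10- HDM array 3 the median over the members was -0.017, without 1 other array it was 0.047 to 0.38, and within slide 2, where 3 HDM arrays meet 1 control array, it was 0.38. Both HDM comparisons share their arrays with the comparisons of the sort, so their values are not independent of them.

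Members with an E2F word in the window had a median log2 fold change of -1.20 in HDM mice (13 measured members), and members with a window and no word -0.52 (21 members). Averaged over both mice the medians were -0.74 and -0.42, and in control mice -0.42 and -0.16. The ranges overlapped widely, from -2.44 to 1.81 with a word and from -2.35 to 2.22 without in HDM mice. These medians are a description with no test.

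Genes of the wider replication and cell cycle program, taken from lists of other genes, did not pass the test either. The lists held 37 other replication genes, 32 other nucleotide genes, 31 G1 to S regulators, 13 checkpoint genes and 15 mitotic genes. Of these, 0 were called in each of the 6 comparisons, against 0.00401% to 0.268% of all tested genes. With shares this low, 0 calls in lists of this size say little. The averaged median was 0.05 for the other replication genes, with 18 of 37 negative, and -0.28 for the other nucleotide genes, with 23 of 32 negative. Over all tested genes it was 0.04, with 47.3% negative. The averaged median was -0.02 for the G1 to S regulators, 0.35 for the checkpoint genes and -0.09 for the mitotic genes. In HDM mice, where the members had a median of -0.61, that of the other replication genes was 0.15, against 0.16 over all genes. There it was -0.52 for the other nucleotide genes, 0.20 for the G1 to S regulators, 1.22 for the checkpoint genes and 0.69 for the mitotic genes. The lower values of the members in HDM mice were thus shared by the nucleotide list only. Topbp1, a scaffold needed to fire origins, had an averaged log2 fold change of -1.04 (SE 0.34, adjusted p = 0.35). Rnaseh2a, which removes ribonucleotides from DNA, was at -1.50 (SE 0.50, adjusted p = 0.38), and Timeless, of the fork protection complex, at -0.95 (SE 0.35, adjusted p = 0.44). Among regulators, Cdkn2b, which encodes the CDK4 and CDK6 inhibitor p15, was at 2.55 (SE 0.67, adjusted p = 0.22), Myc at -0.69 (SE 0.25, adjusted p = 0.43) and E2f4, an E2F that mostly represses, at -1.18 (SE 0.51, adjusted p = 0.53).

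Cdkn2b was at 0.53 to 2.07 over the 6 IL-10+ arrays and at -2.75 to 1.16 over the 6 IL-10- arrays. Ctps2, a CTP synthase, was at 1.84 (SE 0.51, adjusted p = 0.25), and Ppat and Pfas, enzymes of purine synthesis, at -0.63 (SE 0.21, adjusted p = 0.38) and -1.07 (SE 0.38, adjusted p = 0.43). Rad17, a checkpoint clamp loader, was at -0.62 (SE 0.19, adjusted p = 0.32), H2afx at -1.35 (SE 0.94) and the kinase gene Atm at 1.74 (SE 1.24). Among mitotic genes, Birc5, a subunit of the chromosomal passenger complex, was at 2.13 (SE 0.66, adjusted p = 0.33), detected on 6 of the 6 IL-10+ arrays and on 3 of the 6 in IL-10- cells. Ccnb1, which encodes a mitotic cyclin, was at -0.90 (SE 0.48), and Ccnf at -2.09 (SE 0.91), detected on 2 of the 6 IL-10+ arrays and 5 of the 6 in IL-10- cells.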

How the data were processed

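RNA of 12 samples in 4 groups of 3 was measured on 1-colour arrays. Per the labels, mRNA was captured on magnetic beads, and the authors copied and amplified it by global PCR (SuperAmp) before Cy3 labelling; unequal amplification between samples would enter the levels. Per the file headers, the scans of Agilent design 028005 (mm9 annotation) went through Feature Extraction, version 10.7.3.1. The deposited processed signals are intensity values, background-subtracted and not normalised between arrays, and the deposited spot flags are other values. The deposited value table holds a ratio, each processed signal over the array's median, as recomputation showed to within 0.00077%; it served as an alternative.

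Each processed signal was divided by its array's 75th percentile and put on the log2 scale. Of 55681 probes, 37649 were kept: well above background on at least 3 of 12 arrays, with 84 left out as outliers. The probe with the highest mean stood for each of 24964 genes. Limma 3.58.1 in R 4.3.3 fitted 4 group means (8 residual degrees of freedom), with Benjamini-Hochberg adjustment over all genes and no sample dropped or imputed. As arrays give no counts, their number limits the precision. In simulated data, 46 of 100 genes with a log2 change of 2 and 84 of 100 with a change of 4 were called in the averaged comparison, with 13 false calls.

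The members and lists were chosen with earlier results of these data known. Values on every array are given for members by rule: called members; in each comparison of 3 against 3 arrays, up to 6 higher and 6 lower with the largest fold change among those whose groups did not overlap and that the higher group detected on each of its arrays; in the averaged comparison, up to 6 higher and 6 lower with the largest fold change; and the 4 smallest p for the difference of contrasts. Of each other list, called genes and the 3 smallest p in the averaged comparison are named with their fold changes. Values of Orc6, Rpa2, Uhrf1 and Cdc45 were added after their values were seen. Alternatives changed the scaling, background correction, probe filter, probe choice, array weights, blocks and the arrays left out; leaving out the 3 arrays of low detection together was added after seeing the data. Coordinates of probes are those of the files; whether a probe lies in an exon or UTR was not analysed here.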

Additional observations from a re-analysis of the deposited data

Results flagged for a closer look

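A single array stood apart from the other 5 of its sorted fraction for 8 of the 84 sets of 6 arrays checked, 42 members in each of both sorted fractions, by its gap to the nearest array relative to the whole range; chance alone marks about 1 in 20. On IL-10- HDM array 3, Orc1 was low at -6.08, Chaf1a was low at -5.84, both not well above background, and Mcm6 was high at 4.07, against 1.75 to 2.45 on the other IL-10- arrays. IL-10+ control array 2 was low for Cdc45 at -3.55, against 0.06 to 0.85 on the other IL-10+ arrays, and high for Gins4 at 2.36, against 0.32 to 1.07, and for Rfc1 at 2.93, against 0.71 to 1.42. Pola2 was high at 2.43 on IL-10- HDM array 1, against 1.55 to 1.86, and Prim2 was high at 0.50 on IL-10- control array 1, against -1.85 to -1.43. Of the 8, 3 lie on IL-10- HDM array 3 and 3 on IL-10+ control array 2, the arrays with the smallest shares of genes well above background.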

How the results depend on the processing

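Over 141 repeats of the 6 comparisons under other settings, 0 members were called in each; the lowest adjusted p was 0.07, in HDM mice without IL-10- HDM array 1. The deposited value table, scaled to the array median, moved the member median to -1.41 in HDM mice (all genes -0.64), -0.81 averaged (-0.29), -0.48 for HDM against control in IL-10+ cells (-0.21), 0.77 in IL-10- cells (0.60) and -1.23 for the difference of contrasts (-0.78), shifts shared with all genes. Slide as a block gave -0.93 in HDM mice and -0.84 averaged, with the slide term resting on IL-10- control array 3. Members lower at an unadjusted p under 0.05 numbered 3 to 15 in HDM mice (8 as reported) and 3 to 11 averaged (5), and all genes called numbered 0 to 214 in HDM mice (42) and 0 to 139 averaged (67), both 0 with slide as a block. Leaving out 1 array at a time gave member medians of -0.74 to -0.36 in HDM mice, -0.47 to 0.018 in control mice, -0.56 to -0.29 averaged, -0.29 to -0.05 for HDM against control in IL-10+ cells, -0.017 to 0.38 in IL-10- cells and -0.69 to -0.10 for the difference. Quantile normalization turned the median in IL-10- cells to -0.10. Of 37 fold changes of members named by rule, 17 moved by over 1.5 times when 1 array was left out. Single members turned sign: Prim2 in HDM mice to -0.053 (quantile), -0.41 (value table) and -0.52 (slide block); Tk1 for HDM against control in IL-10- cells to 0.10 (value table); and, averaged, Orc1 to -0.011 (normexp), -0.060 (array weights), -0.18 without the 3 arrays of low detection and -0.43 without IL-10- HDM array 3 (1 array left out, -0.43 to 1.10), Rpa3 to -0.076 (slide block) and Chaf1a to -0.10 without IL-10- HDM array 3 (1 array left out, -0.10 to 1.496). The cause was not tested. Leaving out the 3 arrays of low detection together was chosen after seeing the data. Deviations of same-numbered arrays of different groups correlated at -0.14 to 0.15. For IL-10+ with IL-10- arrays of control mice the values were 0.11, 0.15 and 0.03. For those of HDM mice they were 0.02, 0.03 and 0.07, and the negative values all lay between control and HDM arrays. The labels do not say whether same-numbered arrays share a source, and these values cannot settle it. With the replicate block the medians were as reported (-0.48 averaged, 6 members lower at an unadjusted p under 0.05) and 36 genes were called averaged.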
